A study of Mus musculus with 12 samples.

Results

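MHC class II molecules are the surface proteins with which antigen-presenting cells show peptides to T helper cells, and in the epidermis they are carried by Langerhans cells, the resident dendritic cells. H2-Aa, H2-Ab1 and H2-Eb1 code for chains of the class II molecules themselves, Cd74 for the invariant chain that escorts them and blocks their groove, and H2-DMa and H2-DMb1 for the H2-DM editor that helps exchange the blocking peptide for others. Ciita codes for the transactivator that switches these genes on, and Cd207 for langerin, the lectin of Langerhans cell Birbeck granules. These 8 genes were chosen by name, and all 8 of them were found among the 22416 genes listed in each of the 12 count files.

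Ribosome footprints, short pieces of mRNA protected by ribosomes, were counted per gene in single cells sorted from back skin epidermis of female C57BL/6 mice, all of which had received cycloheximide to halt ribosomes before death. Old animals (22 to 26 months) gave 5 plates and young animals (56 to 60 days) gave 5 plates, all sorted without a Sca-1 gate. Plates were assigned to animals by the postnatal day in the labels: old 11 and old 7 to P662, old 12 to P722, old 2 and old 4 to P758, young 10 to P57, young 8 to P59, and young 1, young 3 and young 9 to P60. A further plate held Sca-1-negative cells of a young (P57) and an old (P679) animal, and another held cells of P758 digested with different ribonucleases, called the nuclease plate. The young Sca-1-negative cells share the postnatal day of young 10, so under the rule above they would stem from P57, but the Sca-1-negative plate is kept as a unit of its own below. The age of a Sca-1-negative well could not be read, because the wells are named by barcode and not by the row that separated the ages. A well was kept if it had at least 100 counts, which left 1906 of 1924 unsorted wells with 3382018 counts, 52 of 54 Sca-1-negative wells with 17377 counts and 230 of 242 wells of the nuclease plate with 128007 counts. The deep plates were those of P758 and P60, and P662, P722, P57 and P59 together held far fewer counts, from 5230 in P57 to 70549 in P662. Of 384 barcodes 383 occurred on at least 2 plates, and no barcode marked a class II well on 2 plates.

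The positions are those of the mouse genome (GRCm38.p6). H2-Aa, H2-Ab1, H2-Eb1, H2-DMa and H2-DMb1 are protein-coding genes of the class II region on chromosome 17, with H2-Ab1 from 34263227 to 34269418 and H2-Aa from 34282744 to 34287823. Cd207 lies on chromosome 6 from 83671207 to 83677857 and Ciita on chromosome 16 from 10480014 to 10531064.

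Class II promoters are known for an X box, bound by the RFX complex, that stands a fixed distance upstream of a Y box, bound by NF-Y, and Ciita acts through the proteins on these boxes. No promoter window was at hand for H2-Ab1 or Ciita, and none of Cd74 is reported here. For the other 5 of the 8 genes RefSeq promoter windows (GRCm38.p6) were used, each with 250 bases before and 50 after the start of the gene. They are shown for H2-Aa (chr17:34287774-34288073, minus strand), H2-Eb1 (chr17:34305617-34305916, plus strand) and H2-DMb1 (chr17:34152941-34153240, plus strand), which held the pair of motifs, and for Cd207 (chr6:83677808-83678107, minus strand), which did not. Capitals mark GNAAC, a core of the X box, and TGATTGG, the Y box with its inverted CCAAT.
H2-Aa: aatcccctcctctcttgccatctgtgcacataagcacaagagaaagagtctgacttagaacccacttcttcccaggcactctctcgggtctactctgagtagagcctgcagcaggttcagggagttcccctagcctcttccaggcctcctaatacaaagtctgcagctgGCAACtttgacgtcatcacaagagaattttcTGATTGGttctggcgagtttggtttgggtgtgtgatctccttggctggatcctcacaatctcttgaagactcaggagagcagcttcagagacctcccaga
H2-Eb1: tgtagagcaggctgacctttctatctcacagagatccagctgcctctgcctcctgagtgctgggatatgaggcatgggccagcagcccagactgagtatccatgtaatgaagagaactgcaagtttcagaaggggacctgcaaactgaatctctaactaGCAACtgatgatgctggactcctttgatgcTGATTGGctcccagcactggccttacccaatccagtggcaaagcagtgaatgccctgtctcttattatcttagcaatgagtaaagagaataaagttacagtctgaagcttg
H2-DMb1: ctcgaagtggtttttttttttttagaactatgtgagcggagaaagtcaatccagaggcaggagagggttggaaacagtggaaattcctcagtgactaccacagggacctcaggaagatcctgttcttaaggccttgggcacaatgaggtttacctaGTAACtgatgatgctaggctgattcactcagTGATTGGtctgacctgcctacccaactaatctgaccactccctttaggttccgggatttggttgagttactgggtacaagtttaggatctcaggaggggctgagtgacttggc
Cd207: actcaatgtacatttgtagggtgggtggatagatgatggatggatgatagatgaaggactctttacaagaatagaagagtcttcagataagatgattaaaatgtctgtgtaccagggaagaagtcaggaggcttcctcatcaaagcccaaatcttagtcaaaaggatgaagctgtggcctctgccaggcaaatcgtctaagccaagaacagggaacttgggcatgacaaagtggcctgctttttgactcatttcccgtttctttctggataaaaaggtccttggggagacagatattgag
The motifs were chosen after these windows had been read, and both strands of every window were searched for GNAAC starting 25 to 40 bases before TGATTGG on the same strand, where the motifs cannot overlap. The starts were 31 bases apart in H2-Aa, 30 in H2-Eb1 and 31 in H2-DMb1. Of 5 further windows searched, those of H2-Oa and H2-Ob, which code for the H2-DO modulator of H2-DM, held it too, with 31 and 28 bases. Those of H2-DMb2, a neighbour of H2-DMb1, and of the Langerhans and dendritic cell genes Mfge8 and Itgax did not. The pair was in 140 of 32851 promoter windows of the table (0.426%), TGATTGG in 7.82% and GNAAC in 84.8%. The 2 windows of H2-DMa and the window of Cd207 did not hold the pair, which says only that these letters are not in those windows.

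Footprints of the class II chains were concentrated in few wells. Cd74, H2-Aa, H2-Ab1 and H2-Eb1 (the 4 chain genes below) had 1028 counts over the unsorted plates, of which 1794 of 1906 wells held none, 76 held 1, 13 held 2, 11 held 3 to 9 and 12 held 10 or more. A well was called a class II well if it held at least 3 counts of the chain genes from at least 2 of them. There were 21 such wells on the unsorted plates, 1.10% of wells (exact 95% interval 0.683 to 1.68%), and they held 89.5% of the chain counts. A single well of young 9 held 409 of them (39.8%), and the fullest 5 wells held 68.4%. Intervals and limits cover counting error only, and the wells of a plate share an animal and a library.

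The class II wells came from the deeply counted animals. P758 (old) had 8 class II wells of 627 (1.28%, 0.552 to 2.50%) and P60 (young) 13 of 981 (1.33%, 0.707 to 2.26%). By plate, old 2 had 3 of 292 wells, old 4 had 5 of 335, young 1 had 5 of 333, young 3 had 4 of 326 and young 9 had 4 of 322. The exact intervals of these 5 plates overlapped. None was found in P662, which allows up to 1.51% of its 199 wells, nor in P722 (up to 7.89% of 38), P57 (up to 23.1% of 13) or P59 (up to 6.25% of 48). Their wells were shallow as well as few, so absence of such cells could not be shown there.

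Chain counts were also scattered over wells that were not class II wells. Outside class II wells, 4.83% of 1885 unsorted wells (3.90 to 5.89%) carried a chain count, at a median depth of 893 counts. Wells with T cell markers (at least 3 counts from at least 2 markers), which in the mouse should lack class II chains, carried a chain count in 1 of 49 cases (2.04%, 0.0517 to 10.9%), at a median depth of 692 counts. The intervals overlap, so the scattered counts were not told apart from background. Of the 94 scattered carriers of all plates 10.6% had the barcode of a class II well of another plate, as had 9.48% of all 2151 wells outside class II wells. The 56 Cd74 counts outside class II wells were spread over 48 wells.

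The Sca-1-negative plate was rich in class II wells. The gate removed cells with the Sca-1 surface protein, which most basal keratinocytes carry, and Ly6a, the gene of Sca-1, had 0 counts in its 52 wells, which allows up to 5.77% of wells. On the unsorted plates 0 to 26.4% of wells had a Ly6a count, and on old 11, whose median depth of 217 counts was near the 201 of the Sca-1-negative plate, 2.76% did, so the 0 does not check the gate at this depth. Of these wells 13 were class II wells (25%, 14.0 to 38.9%), against 21 of 1906 unsorted wells, a ratio of shares of 22.7. They held 180 of the 181 chain counts of the plate, and the fullest of them held 49. Chain genes made up 1.04% of all counts on the Sca-1-negative plate, against 0.0304% on the unsorted plates. This is 1 plate of mixed age, so no test was run, and the gate, the animals and the plate cannot be told apart.

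On the Sca-1-negative plate 7 of the 8 genes were higher than on each of the 10 unsorted plates. Cd74 had 4431 CPM (counts scaled to a common total, over the kept wells of a plate) on the Sca-1-negative plate, against a lowest of 0, a median of 69.4 and a highest of 653 CPM over the 10 unsorted plates. Old plates had 46.5, 61.2, 77.6, 186 and 199 CPM of Cd74, and young plates had 0, 21.3, 57.9, 80.8 and 653 CPM, with the highest value in young 9. The gene lies on chromosome 18 from 60803849 to 60812652 (GRCm38.p6), away from the chains it escorts. A plate total cannot tell fewer carrying cells from fewer footprints per cell, and no matched mRNA was counted, so a value joins mRNA level and translation. The share of Sca-1-negative wells with a Cd74 count was 25% (14.0 to 38.9%), against 3.57% (2.78 to 4.50%) of unsorted wells. With every well thinned to 100 counts, the expected shares were 20.5% of 52 wells and 1.08% of 1906 wells. The unsorted wells were deeper, with a median of 894.5 counts, against 201 on the Sca-1-negative plate.

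The other chain genes were among these 7. H2-Aa had 1208 CPM there, against 0 to 185 CPM over the unsorted plates. H2-Ab1 had 2590 CPM, against 0 to 260 CPM. H2-Eb1 had 2187 CPM, against 0 to 180 CPM. As a ratio of the plate to the summed unsorted plates, H2-Eb1 stood at 46.5, H2-Ab1 at 44.5, H2-Aa at 30.5 and Cd74 at 27.9. These sums rest in large part on young 9, which held 279 of the 538 unsorted Cd74 counts, and without that plate the ratios were 78.8, 89.0, 64.9 and 50.5 in the same order of genes, so that their order changes too. A value of 0 on an unsorted plate occurred only among the shallow plates for H2-Ab1 and H2-Eb1, and depth limits what can be read from it.

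Cd207 and Ciita, both low in count, had the highest of these ratios among the 8 genes. Cd207 had 13 counts in 7 Sca-1-negative wells (748 CPM, exact Poisson interval 398 to 1279), against 24 counts in 12 unsorted wells (7.10 CPM, 4.55 to 10.6), a ratio of 105. Ciita had 7 counts in 6 Sca-1-negative wells (403 CPM, 162 to 830), against 19 counts in 13 unsorted wells (5.62 CPM, 3.38 to 8.77), a ratio of 71.7. The unsorted plates with Cd207 were old 2, old 4, young 1, young 3 and young 9, at 11.0, 5.64, 2.94, 3.20 and 25.7 CPM. Ciita had 5.48, 1.88, 5.89, 1.07 and 21.1 CPM on the same plates in that order. Every other unsorted plate held 0 counts of both genes. Young 9 gave 11 of the 24 Cd207 and 9 of the 19 Ciita counts, and without it the ratios were 170 and 119.

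Both H2-DM genes were too thinly counted on the Sca-1-negative plate to be told apart. H2-DMa had 3 counts on the Sca-1-negative plate (173 CPM, 35.6 to 505), against 20 counts over unsorted plates (5.91 CPM, 3.61 to 9.13), a ratio of 29.2. H2-DMb1 had 0 counts on the Sca-1-negative plate, where 3 counts would be 173 CPM, against 16 counts over unsorted plates (4.73 CPM). The absence was therefore not informative at this depth. H2-DMb1 has a near-identical neighbour, H2-DMb2, and reads of both could have been split or dropped, so its counts are uncertain.

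**Figure D1:**
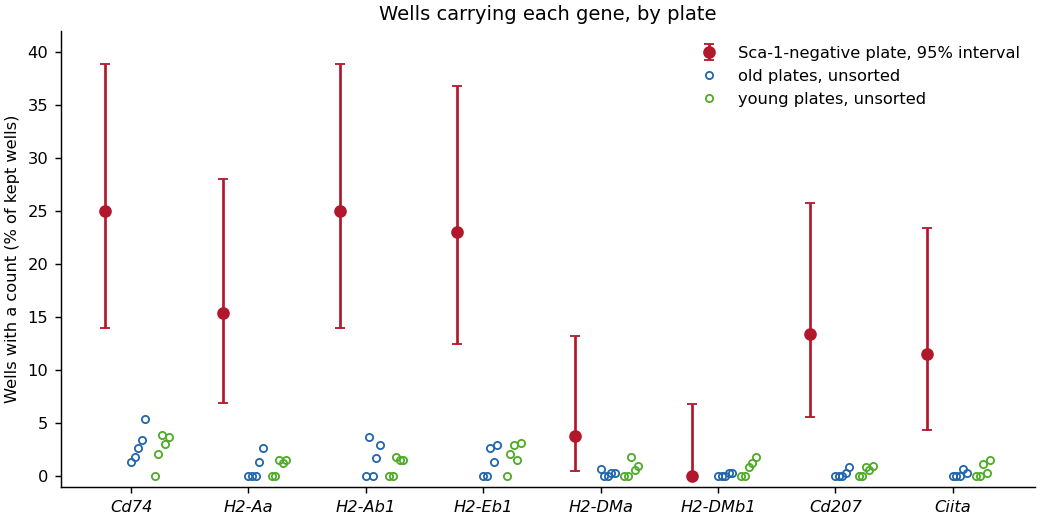
Share of kept wells with at least 1 count of each gene (y axis, percent) by gene (x axis). Filled red points are the Sca-1-negative plate (52 wells) with exact 95% intervals, open points the 5 old and 5 young unsorted plates. The red points lie above every unsorted plate for all genes other than H2-DMb1, which had 0 counts there. Wells were not thinned.

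Within class II wells the 4 chain genes were set against their own sum. Coding lengths were not used here, so shares of the 4-gene sum are compared between wells and plates, not between genes. Over 34 class II wells of the Sca-1-negative and unsorted plates and 1100 counts, Cd74 took 50.8% (47.8 to 53.8%), H2-Ab1 20.4% (18.0 to 22.9%), H2-Eb1 15.5% (13.5 to 17.8%) and H2-Aa 13.3% (11.3 to 15.4%). Without the fullest well, which gave 409 of these counts, the share of Cd74 was 49.9%. H2-Aa made up 39.5% (34.4 to 44.6%) of the sum of H2-Aa and H2-Ab1, which pair as the chains of I-A.

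Shares of Cd74 differed somewhat between plates. It took 42.8% (35.4 to 50.4%) of the chain counts in Sca-1-negative class II wells, 58.1% (51.9 to 64.2%) in those of P758 and 50.2% (46.3 to 54.0%) in those of P60. The intervals of the Sca-1-negative plate and P758 did not overlap. Without the fullest well of P758 its share was 55.5% (47.3 to 63.5%), and the intervals then overlapped. By plate, Cd74 took 56.6% in old 2, 59.2% in old 4, 51.0% in young 1, 34.3% (19.1 to 52.2%, of 35 counts) in young 3 and 51.0% in young 9. Over the 18 class II wells with at least 10 chain counts Cd74 ran from 29.4 to 70.0%, with a median of 47.8%. This range is wider than that over plates, but shares of few counts scatter more by counting error alone. The 70.0% was 7 of 10 counts, and whether wells differed beyond such error was not tested. In the same wells H2-Ab1 ran from 9.09 to 50.0%, H2-Aa from 0 to 24.0% and H2-Eb1 from 0 to 30.0%. No test between plates was run, because the wells of a plate are not replicates of a condition.

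**Figure D2:**
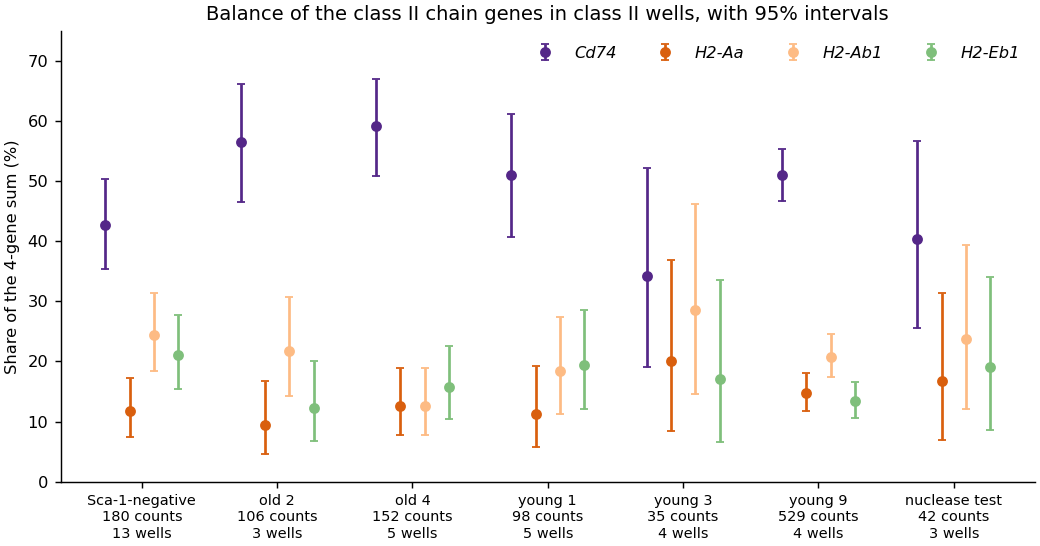
Share of Cd74, H2-Aa, H2-Ab1 and H2-Eb1 in their summed counts (y axis, percent) over the class II wells of each plate that had any (x axis, with the counts and wells behind each), with exact 95% intervals. The share of Cd74 lay between 34.3 and 59.2% over the plates. Coding length was not taken into account.

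The class II wells fell into 2 kinds by the counts of 17 keratinocyte marker genes. No class II well lay between 1.76 and 4.73% of keratinocyte marker counts, and 2% was set as the border after these values were seen, so the kinds are a description. Shallow wells are not placed firmly by it, since the Sca-1-negative well at 1.76% had 3 such counts of 170 (exact interval 0.365 to 5.07%). The 21 keratin-poor wells were 12 Sca-1-negative, 2 old and 7 young wells. The 13 keratin-rich wells were 1 Sca-1-negative, 6 old and 6 young wells. Keratin-poor wells had a median of 389 counts and chain genes took a median of 4.42% of them (1.58 to 17.5%). Keratin-rich wells had a median of 1894 counts, of which chain genes took 0.402% (0.0321 to 2.17%). The rule for a class II well takes no account of depth, and 1 keratin-rich well of 9340 counts met it with 3 chain counts. Outside class II wells, the median share of keratinocyte markers was 6.67% on the Sca-1-negative plate and 8.01% on the unsorted plates, near that of the keratin-rich wells at 7.60%. No doublet caller was run, and what part a further cell or free RNA had in the keratin-rich wells was not tested.

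Langerhans cell genes were detected in both kinds of well, but not in every well. Of the 34 Langerhans and dendritic cell markers beside Cd207, none was detected in 4 of 13 keratin-rich and 1 of 21 keratin-poor wells. Cd207 was detected in 13 of 21 keratin-poor wells and in 4 of 13 keratin-rich wells, and since the kinds were parted after their values were seen the difference was not tested. Csf1r, the receptor for growth factors on which Langerhans cells depend, was detected in 17 of 21 and in 3 of 13. Ciita was detected in 11 of 21 and in 2 of 13, and H2-DMa in 6 of 21 and in 2 of 13. Mfge8, a milk fat globule protein made by Langerhans cells, was detected in 12 of 21 and in 5 of 13. The fullest well, on young 9, had 3371 counts with 214 of Cd74, 84 of H2-Ab1, 61 of H2-Aa, 50 of H2-Eb1, 7 of Cd207, 5 of H2-DMa, 2 of H2-DMb1 and 2 of Ciita. It held both H2-DMb1 counts of all class II wells. A well of old 4 had 589 counts, of which 103 were of chain genes (17.5%, the highest share), with no count of Cd207 or Mfge8, but 3 counts of Mrc1, a mannose receptor of macrophages and dermal dendritic cells, 3 of Mgl2, a lectin of the same cells, and 5 of Fcer2a, the low-affinity IgE receptor. Among keratin-rich wells, one of old 2 with 4519 counts held 98 chain counts, 4 of Cd207, and 92 and 82 counts of the basal keratin genes Krt5 and Krt14. This well gave 4 of the 7 Cd207 and 14 of the 18 Mfge8 counts of the keratin-rich wells.

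**Figure D3:**
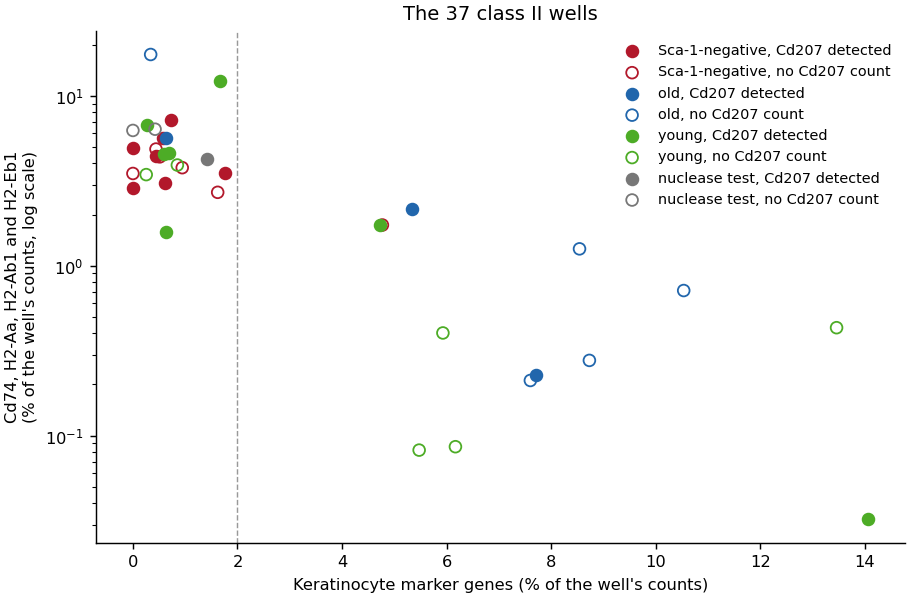
Each point is a class II well (34 of the Sca-1-negative and unsorted plates and 3 of the nuclease plate). The x axis gives the share of 17 keratinocyte marker genes and the y axis (log scale) that of the 4 chain genes, both in percent of the well's counts, and filled points had a Cd207 count. The dashed line at 2% parts keratin-poor wells, at 1.58% of chain genes or more, from keratin-rich wells, at 2.17% or less.

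The members that did not choose the wells were compared between class II wells and all other kept wells of the Sca-1-negative and unsorted plates, including the 5 shallow unsorted plates without a class II well. Cd207 had 35 counts in 17 of 34 class II wells, against 2 counts in 2 of 1924 other wells. The summed levels were 674 and 0.597 CPM, a ratio of 1128 with a counting interval of 290 to 9684. Ciita had 20 counts in 13 class II wells, against 6 counts in 6 other wells, a ratio of 215 (83.3 to 654). H2-DMa had 15 counts in 8 class II wells, against 8 counts in 8 other wells, a ratio of 121 (48.1 to 329). H2-DMb1 had 2 counts in 1 class II well, against 14 counts in 14 other wells, a ratio of 9.21 (1.02 to 40.1). Cd207 was thus found almost wholly in class II wells, while most H2-DMb1 counts lay outside them.

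Counts were then summed for class II and other wells within each of 3 blocks (P758, P60 and the Sca-1-negative plate) and compared with edgeR's quasi-likelihood test with the block as a term. The 4 chain genes chose the wells and are left out of the calls. Of 294 other genes that passed the filter on low counts, 5 were called higher (1.70%) and 1 lower (0.340%) at a Benjamini-Hochberg adjusted p under 0.05. Cd207 was among the 5, at 9.23 on the log2 scale (SE 0.46, adjusted p = 1.77e-08). Its size depends on the prior count of the fit, as the other wells were close to 0. Cd207 passed the filter only through its counts in class II wells, so the call adds little to the counts themselves, and in 5 of 11 alternatives it did not pass the filter (without the fullest well, without P60, with wells of at least 500 counts, with wells of at least 2 chain counts, and with the keratin-poor wells alone). In the other 6 its log2 difference was 8.51 to 9.44. Without a filter 41 of 15844 genes (0.259%) were called higher, among them Ciita (log2 difference 6.34, SE 1.05, adjusted p = 1.71e-06 by edgeR) and H2-DMa (6.20, SE 1.11, adjusted p = 2.03e-05). H2-DMb1 was not called (2.67, SE 2.13, adjusted p = 0.958).

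The other called genes were named because the calls were few. Csf1r and Mfge8 passed the filter through their counts in class II wells, like Cd207, so their calls describe those counts and add no support to them. Csf1r rose by 8.05 on the log2 scale (SE 0.53, edgeR's adjusted p = 1.79e-07) and Mfge8 by 7.52 (SE 0.64, adjusted p = 1.75e-06). Vim, which codes for vimentin, the intermediate filament of many cells other than keratinocytes, rose by 3.03 (SE 0.49, adjusted p = 0.00117), and Nr4a1, an immediate early gene, by 2.38 (SE 0.58, adjusted p = 0.0400). Krt79, a keratin of the upper hair follicle and sebaceous duct, fell by 6.77 on the log2 scale (SE 0.74, adjusted p = 2.42e-05), a size that depends on the prior count, with 1 count in class II wells, against 5043 in other wells (19.3 against 1507 CPM). Krt79 passed the filter through its counts in the other wells, so its call describes those counts and adds no support to them. It was called in each of the 10 alternatives in which it was tested. Vim was called in 7 of 9 and Nr4a1 in 6 of 9. Neither passed the filter with the keratin-poor wells alone, and whether counts in class II wells brought them past it was not tested. Without a filter neither was called (edgeR's adjusted p = 0.135 for Vim and 0.958 for Nr4a1). Without the Sca-1-negative plate neither was called (edgeR's adjusted p = 0.0948 for Vim and 0.999 for Nr4a1). Without the fullest well Nr4a1 was not called (log2 difference 2.37, adjusted p = 0.0750) and Vim did not pass the filter, and without P758 Nr4a1 did not pass it. The number of genes called higher was 2 without the fullest well, 3 without P60, 25 without P758 and 29 without the Sca-1-negative plate.

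Among genes other than the 8 members, the 12 with the largest ratio of class II wells to other wells included the dendritic cell integrin gene Itgax, Csf1r and Mfge8. Among genes with at least 10 counts in class II wells and a count in at least 4 of them, 4 had 0 counts in all 1924 other wells, so that their ratios are lower bounds against 3 counts. Dpep2, a membrane dipeptidase, had 16 counts in 11 class II wells, at least 344-fold higher. Cyp4f37, a cytochrome P450, had 14 counts in 8 wells, at least 301-fold higher. Itgax, which codes for CD11c, the integrin of dendritic cells, had 13 counts in 10 wells, at least 279-fold higher. H2-M5, a class I-like gene, had 11 counts in 6 wells, at least 236-fold higher. These are descriptions of the chosen wells, with no test.

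The other 8 of these 12 genes had a few counts elsewhere. Csf1r had 55 counts in 20 class II wells, against 10 counts in other wells, a ratio of 355 (179 to 780). Mfge8 had 68 counts in 17 class II wells, against 19, a ratio of 231 (137 to 407). F830045P16Rik had 37 counts in 10 class II wells, against 5, a ratio of 477 (187 to 1555). Mmp9, a gelatinase, had 33 counts in 11 class II wells, against 5, a ratio of 426 (165 to 1396). Ctss, the protease cathepsin S that trims the invariant chain, had 15 counts in 8 class II wells, against 4, a ratio of 242 (77.0 to 1001). Tnfaip2 had 29 counts, against 3, Adgre4, an adhesion receptor of myeloid cells, 12 against 1, and Alox5ap, the partner protein of 5-lipoxygenase, 11 against 1.

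Counts of some of these genes came from P60 and the Sca-1-negative plate, with none in P758. In the 8 class II wells of P758 (12594 counts) Dpep2, Cyp4f37, Adgre4, Mmp9 and Ciita had 0 counts. In the 13 class II wells of P60 (35104 counts) they had 12, 9, 10, 31 and 13 counts, in that order of genes. Of the 31 Mmp9 counts 20 lay in 1 well. The keratin-poor wells were 2 in P758, with 1069 counts, and 7 in P60, with 7463 counts, so depth limits this difference, and with 1 animal per age no test was run. Csf1r had 7 counts in P758 and 34 in P60, Mfge8 16 and 36, and Cd207 6 and 16.

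**Figure D4:**
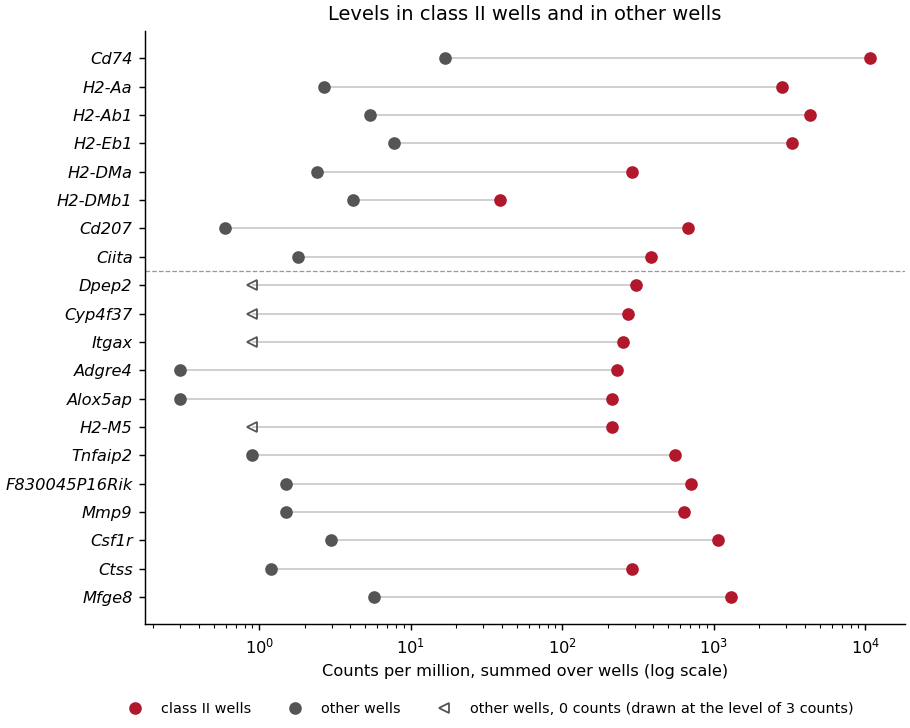
Summed level of the 8 genes (above the dashed line) and of the 12 other genes with the largest ratio (below it) in 34 class II wells (red) and 1924 other wells (grey), in CPM on a log x axis. Each gene is to be compared with itself only, as levels are not scaled to gene length. For Cd207 the levels were 674 and 0.597 CPM, and triangles mark genes with 0 counts in other wells, drawn at the level of 3 counts.

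Across single wells the gene most like the chain genes was Csf1r. Over 1906 unsorted wells of 10 plates and 11129 genes with a count in at least 10 wells, the Spearman correlation with the summed CPM of the chain genes was 0.33 for Csf1r, 0.33 for Mmp9, 0.30 for F830045P16Rik, 0.26 for Alox5 and 0.22 for Coro1a. Such wells share libraries and depth, most values are 0, and the correlations are weak, so they are given as a description.

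Most markers of Langerhans and dendritic cells were detected in class II wells, those of T cells, B cells, mast cells and melanocytes were at or near 0, and some macrophage markers had a few counts. Of 35 Langerhans and dendritic cell markers 26 were detected in class II wells, where they took 0.709% of counts (2.20% in keratin-poor wells), against 0.0962% in other wells. Most of the 35 also had counts in the other wells, so detection alone does not set class II wells apart. The filter of the edgeR test left 4 of these markers, and 3 were called higher (Cd207, Csf1r and Mfge8), which passed it through their counts in class II wells. The other, Cst3, which codes for cystatin C, had a log2 difference of 1.35 (adjusted p = 0.280). T cell markers had 5 counts, with 20 of 22 at 0 in class II wells. All 7 B cell, all 6 mast cell and all 7 melanocyte markers had 0 counts in these 51912 counts. Of 8 macrophage markers 4 were detected, with 10 counts in all. C1qa, which codes for a chain of complement C1q, had 4 counts in 4 class II wells, against 3 in other wells (77.1 against 0.896 CPM). Mrc1 had 3 in 1 well, against 9 (57.8 against 2.69 CPM), Cd68, a lysosomal protein of macrophages, 2 in 2 wells, against 9 (38.5 against 2.69 CPM), and Cd163, a haemoglobin scavenger receptor, 1, against 2. The class II wells had the higher level of each of the 4, on few counts, and the part of such cells in the results was not tested. No sum of the list is compared, because a marker is left out of it. Of the markers that define Langerhans cells, Epcam had 18 counts in 11 class II wells, against 695 counts in other wells, a level of 347 against 208 CPM.

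Other genes of the class II pathway were thinly counted. Of 11 measured genes of the pathway beside the members (14 in the list), 7 were detected in class II wells and none passed the filter of the test. Ctss led, and Cd86, a costimulatory ligand, had 7 counts in 5 class II wells, against 0 in other wells. Marchf1, a ubiquitin ligase that lowers surface class II, had 6 counts, against 1. Lgmn, an asparagine protease of the endosome, had 6 counts, against 175 in other wells, a ratio of levels of 2.21. Ctsl, which codes for cathepsin L, had 4, against 563, a ratio of 0.458. H2-DMb2 had 3 counts in class II wells, against 0, and H2-Oa 2 against 1. The 7 genes of the factors that bind class II promoters were all detected, with 18 counts in class II wells, against 719 in other wells (0.0347 and 0.0215% of counts). They were led by Nfya with 7 and Rfx5 with 5. In the keratin-poor wells only 2 of the 7 were detected, with 3 counts (0.0244%), so most of the 18 counts came from keratin-rich wells.

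Keratinocyte and interferon-related genes did not share the pattern. Keratinocyte markers took 7.14% of counts in class II wells (0.847% in keratin-poor wells), against 10.6% in other wells. Of the 17, 15 were tested, 0 were called higher and 1 was called lower (Krt79), with a median log2 difference of -0.88 beside -0.07 over all 294 genes. At an unadjusted p under 0.05, 26 of the 294 tested genes lay in either direction. Genes induced by interferon gamma, the cytokine that also induces Ciita, took 0.510% of counts in class II wells (0.252% in keratin-poor wells), against 0.630% in other wells. Of 20 such genes 3 were tested and none was called by edgeR, and B2m, H2-K1 and H2-D1 of class I presentation had log2 differences of -0.36, -0.09 and 0.12. Of the 51912 counts of class II wells 39627 lay in keratin-rich wells, so these sums in large part describe those wells.

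The design also asks whether footprints differ between the ages. No member passed the filter on low counts in the edgeR test over 3 old and 3 young animals, in which 0 of the tested genes were called (0.00%), with 25 at an unadjusted p under 0.05. DESeq2 called 0 genes as well, with 6 at an unadjusted p under 0.05. Without a filter 111 of 15873 genes were called and at a mean of at least 20 CPM 45 of 6714, and no member was among them. With so few of all genes called, the lack of a call among the members says little about them. Cd74 had 56.7, 77.6 and 194 CPM in the old animals P662, P722 and P758, against 0, 80.8 and 150 CPM in the young animals P57, P59 and P60. The ranges overlap, and the low values rest on 4, 1, 0 and 1 counts. Old animals averaged 109 ± 74.0 CPM against 77.0 ± 75.1 CPM for young animals (SD, n = 3 per age; two-sided exact permutation p = 0.7, where 0.1 is the smallest that 3 against 3 animals allow).

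The other members overlapped between the ages as well. H2-Eb1 averaged 43.0 ± 39.5 CPM over old animals and 42.5 ± 40.6 CPM over young ones, H2-Ab1 28.0 ± 27.9 and 20.3 ± 35.1 CPM, and H2-Aa 12.6 ± 21.9 and 14.0 ± 24.2 CPM (SD, n = 3 per age; exact permutation p = 1 for each of these 3 genes). H2-DMa averaged 5.47 ± 7.62 CPM over old animals and 2.38 ± 4.12 CPM over young ones (exact permutation p = 0.7), and Cd207 2.60 ± 4.51 and 2.38 ± 4.12 CPM (exact permutation p = 1). All 6 of these p-values were 1 after Benjamini-Hochberg adjustment. Depth bears on these means and p-values, so they do not show that the ages are alike. The highest H2-Eb1 values of each age, 77.6 CPM in P722 and 80.8 CPM in P59, were 1 count each. They lay above P758 (51.3 CPM from 46 counts) and P60 (46.6 CPM from 111 counts). H2-DMb1 and Ciita, with 16 and 19 counts over all animals, were not tested. In the deep animals P758 (old) and P60 (young), Cd207 had 7.81 CPM (3.14 to 16.1) and 7.13 CPM (4.15 to 11.4), and the Poisson intervals overlap. Cd74 had 194 CPM (166 to 225) in P758 and 150 CPM (135 to 167) in P60. Single wells weighed heavily in both, with 64 of the 174 counts of P758 and 214 of the 358 counts of P60 in 1 well each. The Poisson intervals do not cover that spread between wells.

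**Figure D5:**
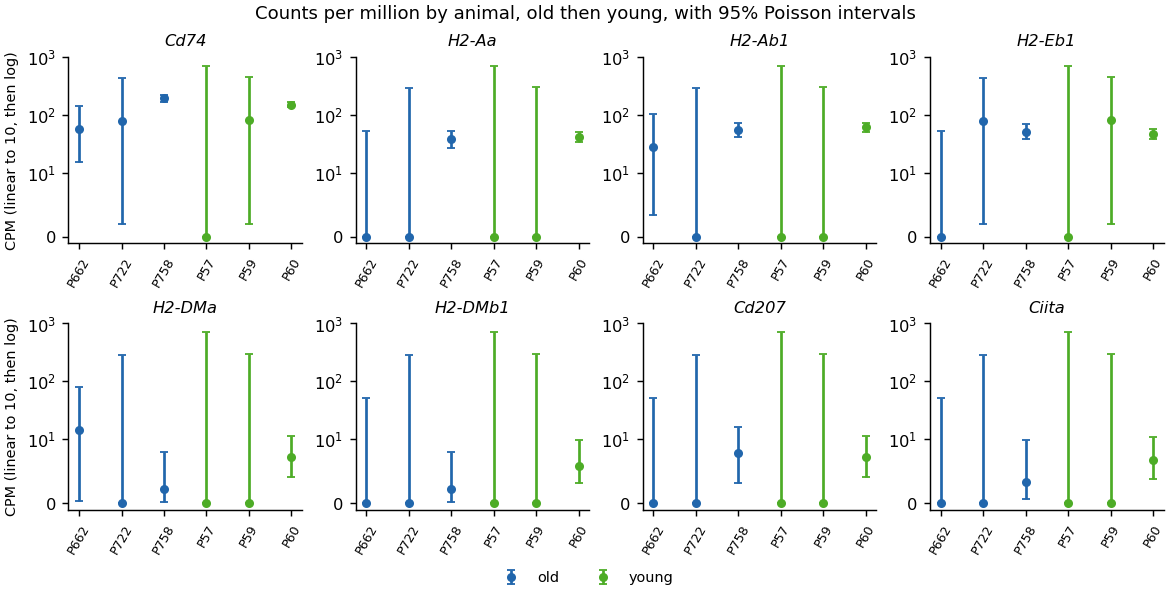
CPM of each gene in the 3 old animals (P662, P722, P758, blue) and the 3 young animals (P57, P59, P60, green), with exact 95% Poisson intervals, on a y axis that is linear to 10 and logarithmic above. Old and young animals overlap for all 8 genes. The long intervals in P722, P57 and P59 come with few counts.

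The nuclease plate held cells of the old animal P758 and entered no comparison. It had 3 class II wells of 230 (1.30%, 0.270 to 3.76%), all keratin-poor, with 42 of its 44 chain counts. Cd74 took 40.5% (25.6 to 56.7%) of the chain counts in them, and 1 of the 3 held Cd207, with 2 counts.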

How the data were processed

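The deposited files give whole-number counts of footprint reads per gene and well. The build was GRCm38.p6 and the named tools were featureCounts, UMI-tools, STAR, Bowtie2 and fastp, per the submitters' processing notes. Tool versions, settings and the filter on wells were not given in the sources used here. How reads of near-identical copies were treated is likewise not given.

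The members, gene lists and rules were chosen with earlier results of these data known. Plates that share age and postnatal day were assumed to stem from the same animal. Wells had at least 100 counts, and 0 value columns lacked a sample. Over 20 pairs of plates of 1 age chi-square over degrees of freedom was at least 1.45, so none repeated another within sampling noise. Only the spread between animals enters the age test, and between blocks the class II test. The Sca-1-negative and nuclease plates entered no age test.

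Tests were run in edgeR 4.0.16 (R 4.3.3; TMM, filterByExpr, robust quasi-likelihood fit, Benjamini-Hochberg at 0.05, checked on simulated counts), with DESeq2 1.42.0 and limma 3.58.1 as alternatives, and exact two-sided permutation tests (scipy 1.17.1) for members with at least 20 counts. The SE was taken as |log2 difference| / sqrt(F). Intervals are exact (Clopper-Pearson or Poisson, 95%), and limits for 0 are 3 counts or wells. Thinned shares are hypergeometric expectations. Counts per codon had been planned for the balance, but no coding lengths were used here. All 8 members were named, with up to 12 other genes by ratio, up to 6 per list by count and 5 by correlation. A further macrophage marker is not reported here, and the counts of that list leave it out. Vim, Nr4a1, Mgl2 and Fcer2a were added after their values were seen. Figures were drawn with matplotlib 3.10.9.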

Additional observations from a re-analysis of the deposited data

Results flagged for a closer look

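Values were looked at over the 5 old and the 5 young plates for each member and for the share of class II wells (18 groups of plates), where chance alone marks about 1 group in 20. Young 9 stood far above the other young plates for 6 members. It had 653 CPM of Cd74, 185 of H2-Aa, 260 of H2-Ab1, 25.7 of Cd207, 21.1 of Ciita and 16.4 of H2-DMb1, and the next young plate had 80.8, 11.8, 21.6, 3.20, 5.89 and 4.27 CPM of the same genes in that order. Its share of class II wells did not stand apart, at 1.24%. Without its fullest well, which held 3371 counts, young 9 had 153 CPM of Cd74, 42.4 of H2-Aa, 63.7 of H2-Ab1, 9.43 of Cd207, 16.5 of Ciita and 11.8 of H2-DMb1, each still above the next young plate.

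H2-DMa had 20.4 CPM in old 11, far above the next old plate at 2.74 CPM, and this value is 1 count.

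The nuclease plate, which entered no comparison, held 17 counts of Cd74, 12 of H2-Ab1, 8 of H2-Eb1 and 7 of H2-Aa, each above the limit of 3 counts that 0 allows.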

How the results depend on the processing

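Of 153 values recomputed under other settings 124 stayed close to the reported value or on its side of the threshold. Only the log2 difference of Cd207, with 6 of these values, could change direction, and it did not. The 2 counts of Cd207 in other wells left little room for that. The age test called 111 of 15873 genes without a filter and 45 of 6714 at a mean of at least 20 CPM, and 0 in the other settings. None was a member, but at 20 CPM only Cd74, H2-Ab1 and H2-Eb1 of the members were tested. The other settings tested Cd74 alone or no member. Beside 5 genes called higher and 1 lower in class II wells, DESeq2 called 14 higher and 4 lower, edgeR without a filter 41 and 5, the keratin-poor wells alone 13 and 23 (7 of the 23 are keratinocyte markers, which parted those wells, and the choice of wells bears on the other 16 too), and edgeR without the fullest well 2 and 1. Calls lower were 2 with RLE size factors, 4 with wells of at least 2 chain counts, 9 with at least 5 and 2 with wells of at least 500 counts. Leaving out P758 gave 25 higher and 4 lower, leaving out P60 gave 3 and 1, and leaving out the Sca-1-negative plate 29 and 4. The number of genes that passed the filter changed with these settings, from 71 to 7177 beside the 15844 without a filter, and other causes were not tested. Cd207 was not tested in 5 of these settings, among them those without P60 and without the fullest well.

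On the Sca-1-negative plate 2 class II wells remained at a minimum of 500 counts per well, against 13 as reported, since few of its wells are that deep. Thinned to 300 counts, wells with Cd74 came to 35.6% on the Sca-1-negative plate and 1.75% on the unsorted plates, over 14 and 1544 wells. As a mean over wells, the share of Cd74 was 45.2% and that of H2-Ab1 23.4%. Leaving out each unsorted plate in turn, the ratio of the Sca-1-negative plate to the summed unsorted plates ran from 20.9 to 50.5 for Cd74, 23.4 to 64.9 for H2-Aa, 34.2 to 89.0 for H2-Ab1, 35.4 to 78.8 for H2-Eb1, 23.4 to 42.5 for H2-DMa, 84.2 to 170 for Cd207 and 54.7 to 119 for Ciita, each highest without young 9. The keratin-poor wells and the settings without the fullest well or an unsorted plate were chosen after seeing the data. No paired analysis was possible because old and young plates share no replicate numbers. Depth limits the shallow animals P662, P722, P57 and P59, where 1 count decides a value.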
